A study of Mus musculus with 4 samples.

Results

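Proteasome subunit genes were examined in CD4+CD8a+ double-positive (DP) thymocytes of control mice and mice with a conditional knockout of Cxxc1, which encodes a CpG-binding chromatin protein. The set was every gene symbol written as Psm, a letter from a to g and a number, with an optional closing letter, except Psmb8 and Psmb9, and it held 47 of the 35976 symbols counted. Of these, 17 encode the core particle (8 Psma and 9 Psmb genes) and 25 are of the regulatory families (6 Psmc, 14 Psmd and 5 Psme genes), assembly factors Psmd5, Psmd9 and Psmd10 included. The remaining 5 were Psmf1 and 4 Psmg genes. Membership rested on names alone and used no measured value, but the set was chosen with earlier results of these data known. Bulk RNA-seq was done on thymocytes sorted from mouse thymus as CD24+, TCRb-, CD4+ and CD8a+. Control mice were Cxxc1 +/+ and knockout (KO) mice Cxxc1 F/F, where F conventionally marks an allele flanked by loxP sites. Both groups carried Lck-cre, in which the T-lineage Lck promoter drives Cre recombinase. There were 2 libraries per genotype, and the labels give neither age nor sex nor whether the libraries came from separate mice, so the spread behind each p-value is that of these libraries and may be technical.

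The proteasome is the main protease of the cytosol and nucleus and degrades proteins tagged with ubiquitin. Its core is a barrel of stacked alpha and beta rings, with the active sites on the inner face of some beta subunits. Regulatory particles cap the barrel: one, built of Psmc ATPases and Psmd proteins, binds ubiquitin chains, unfolds the substrate and feeds it in, while the Psme activators open the barrel without ubiquitin. In immune cells, interferon-inducible beta subunits and the activators Psme1 and Psme2 adapt the particle to making peptides for MHC class I, and cortical thymic epithelium has a beta subunit of its own, Psmb11.

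Total counts were 12150508 in control 1 and 33544428 to 36243182 in the other 3 libraries. Cxxc1 itself was at 111 and 53.5 CPM in control libraries 1 and 2 and at 35.7 and 39.4 CPM in KO libraries 1 and 2, a log2 fold change of -1.12 ± 0.34 (edgeR adjusted p = 0.199, DESeq2 adjusted p = 0.0337), and gene-level counts keep reads from outside the deleted part. Markers of DP thymocytes were present, with 12 of 12 tested, at a sum of 11938 and 15608 CPM in control and 6137 and 8547 CPM in KO, and 3 of the 12 fell, namely Cd4, Cd8a and Dntt. Macrophage and dendritic markers summed to 9.67 to 15.4 CPM per library and B cell markers to 7.01 to 10.7 CPM. Erythroid markers summed to 8.66 and 14.0 CPM in control and 38.0 and 26.2 CPM in KO. The 4 globin genes were at 0 in both controls and passed the filter on low counts through their KO counts alone, which fixed their directions. Of the 6 erythroid genes edgeR called 1, Hba-a1 (507 and 231 counts in KO), and DESeq2 called 3, beside 4.74% of the genes it gave an adjusted p. The part of these markers in the proteasome values was not tested. In bulk libraries fewer cells of a type and less RNA per cell cannot be told apart.

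Of the 47 members, 0 passed the test between genotypes, while most point estimates lay slightly above 0. A total of 39 of 47 had a higher fitted level in KO (82.98%, against 47.6% of all genes tested and 55.9% of the 9255 genes with a mean of at least 10 CPM). The median log2 fold change of the members was 0.24 (17.9% higher in KO), beside -0.044 over all 20389 genes tested and 0.062 over those with at least 10 CPM. Among members detected in every library, the smallest p-values were those of Psme2, Psma5, Psmb10, Psme1 and Psmg2, with log2 fold changes of 1.42, 1.00, 0.99, 0.71 and 0.92. They encode an activator chain, an alpha subunit, an inducible beta subunit, the other activator chain and an assembly chaperone. The catalytic subunit genes Psmb5, Psmb6 and Psmb7 and all ATPase and lid genes lay between -0.39 (Psmd8) and 0.49 (Psmd6).

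Calls were made with the quasi-likelihood test of edgeR at a Benjamini-Hochberg adjusted p below 0.05 over all genes, which gave 0.451% of all genes, 0.270% higher and 0.181% lower in KO. At an unadjusted p below 0.05, 6 members were higher and 1 lower in KO, beside 6.97% and 6.91% of all genes (13.9% in either direction). DESeq2 called 1 member, Psme2, beside 4.74% of the genes it gave an adjusted p. Both KO libraries lay above both controls in 20 members (42.6%, against 22.8% of all genes and 27.3% of those with at least 10 CPM) and below both in 2 (against 24.0% and 20.2%). The groups overlapped in the remaining 25. Scaling by library totals gave 25 above and 2 below, and the number of estimates above 0 ran from 35 with upper-quartile scaling to 40 with library totals. All 47 members passed the filter on low counts, Psma8 through its KO counts alone and Psmb11 through its control counts alone. The filter thus fixed the directions of these 2 genes. Psma8 is counted among the estimates above 0, the 20 members and the 6 higher members. Psmb11 is counted among the 2 members below both controls and is the 1 lower member.

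Member levels also differed between libraries of one genotype. KO 1 exceeded KO 2 in 41 of 47 members, and control 1 exceeded control 2 in 28. Summed over the members, the level was 2726 and 2475 CPM in control and 3422 and 2693 CPM in KO, so that KO 2 lay between the controls and KO 1 above them. Without KO 1 the median log2 fold change was 0.14 with 30 of 46 members above 0, and without KO 2 it was 0.44 with 40 of 47 above 0. It was 0.36 without control 1 and 0.20 without control 2. Over all genes tested the median was -0.056 without KO 1, -0.15 without KO 2, 0.0029 without control 1 and 0.044 without control 2. Estimates above 0 made up 47.2% of all genes tested without KO 1 and 43.5% without KO 2.

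**Figure D1:**
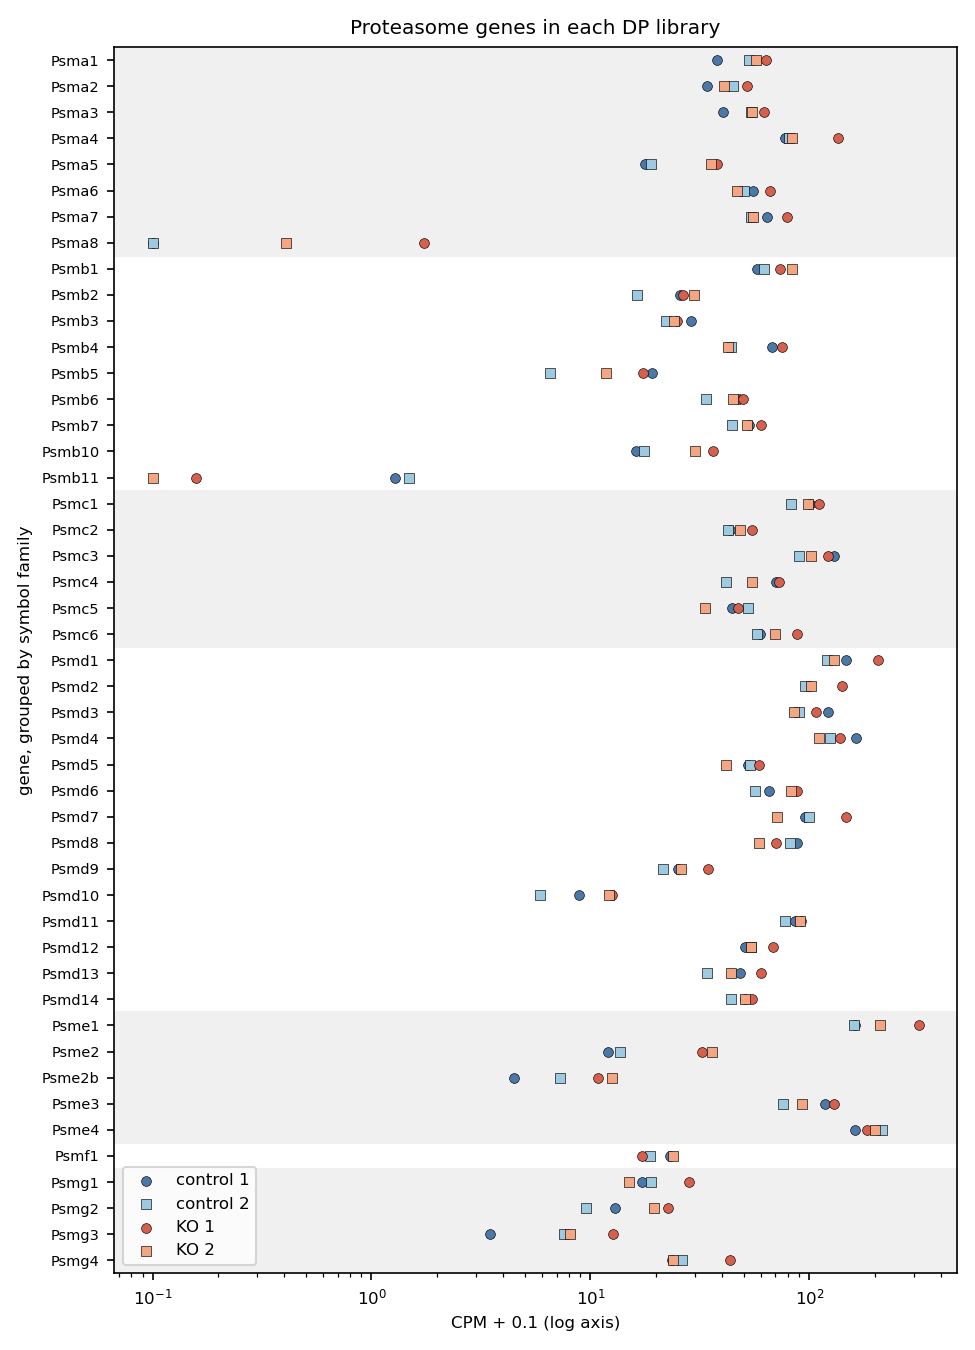
Level of each of the 47 proteasome genes in each library, as CPM plus 0.1 on a log axis, with genes grouped by symbol family and 1 point per library (blue control, red KO). Psme2, Psma5 and Psmb10 have both KO points to the right of both control points, and Psma8 and Psmb11 sit near 0.

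**Figure D2:**
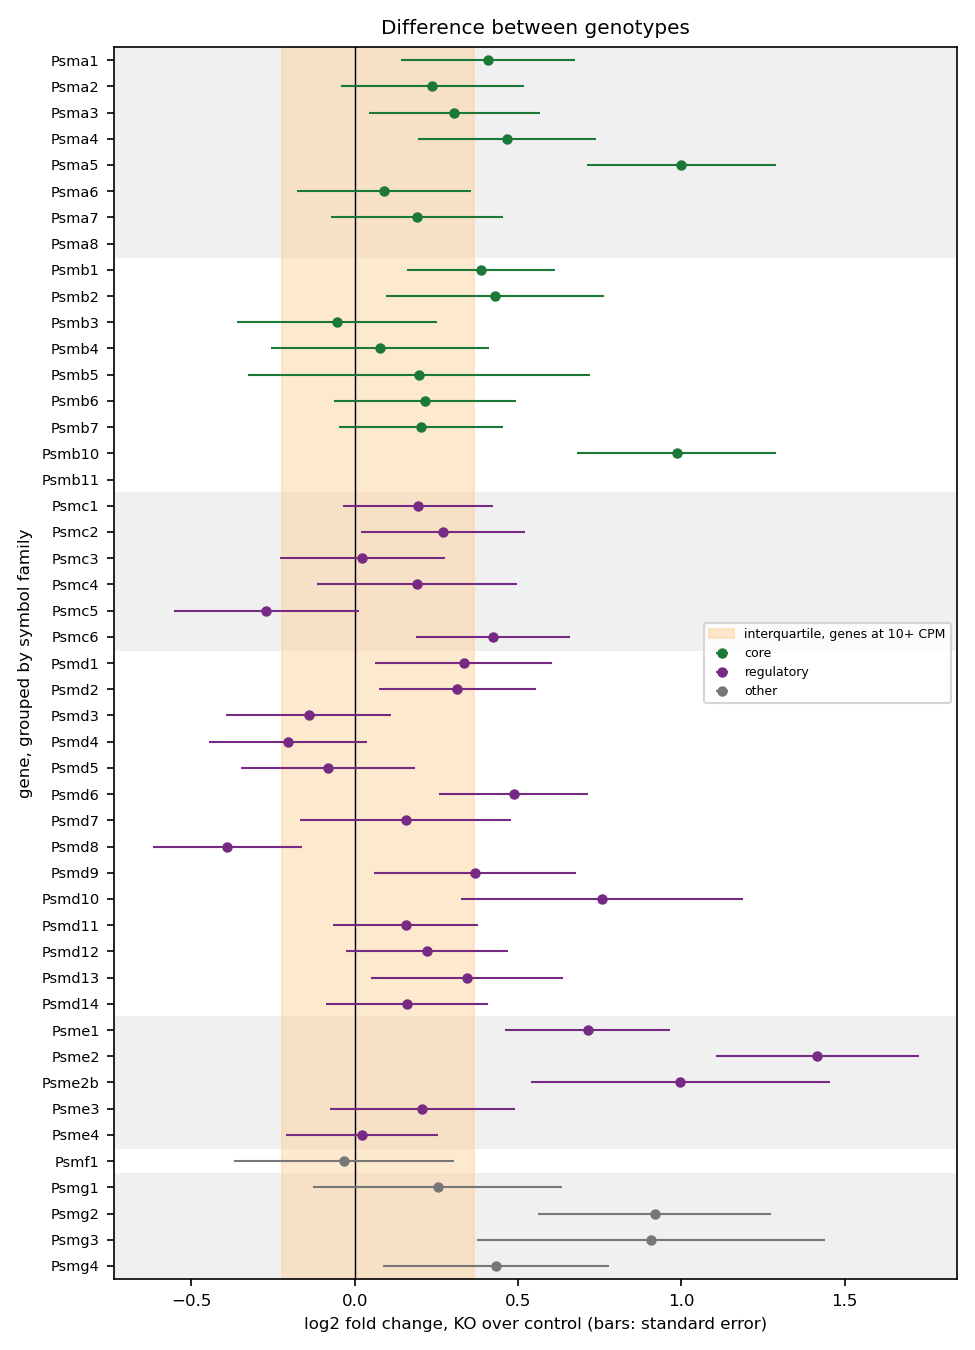
Log2 fold change of KO over control for each gene, with its standard error as a bar and the colour giving core, regulatory or other members; the shaded band is the interquartile range of genes with at least 10 CPM. Most genes lie inside or just above the band, and Psme2 stands farthest to the right at 1.42; Psma8 and Psmb11 are not drawn, since their fitted values rest on libraries at or near 0 counts.

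Cxxc1 binds DNA at CpG dinucleotides that carry no methyl group, which cluster at many promoters, so the promoters of the members were described by their CG content (RefSeq, GRCm38.p6, from 250 bases before to 50 after the annotated start). The table held 42 promoters for 39 of the 47 members. Their median was 19 CG dinucleotides in the 300-base window (interquartile range 12 to 22.8, range 2 to 41), against 7 over all 32851 promoters and 13 over the 21263 of protein-coding genes. The 250 bases before the start are shown for the 3 genes of smallest p, Psme2 (its outer annotated start), Psma5 and Psmb10, and for Psma7, the member richest in CG, so that like and unlike CG content can be set beside their values. Capitals mark each CG. They are Psma5 (chr3:108256676-108256925, + strand), Psmb10 (chr8:105938393-105938642, - strand), Psme2 (chr14:55591102-55591351, - strand) and Psma7 (chr2:180042465-180042714, - strand).
Psma5: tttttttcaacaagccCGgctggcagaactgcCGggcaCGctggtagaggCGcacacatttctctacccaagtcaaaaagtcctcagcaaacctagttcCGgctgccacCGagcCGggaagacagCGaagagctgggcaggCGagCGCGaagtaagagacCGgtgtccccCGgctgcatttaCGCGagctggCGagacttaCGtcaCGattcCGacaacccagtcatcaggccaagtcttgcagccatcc
Psmb10: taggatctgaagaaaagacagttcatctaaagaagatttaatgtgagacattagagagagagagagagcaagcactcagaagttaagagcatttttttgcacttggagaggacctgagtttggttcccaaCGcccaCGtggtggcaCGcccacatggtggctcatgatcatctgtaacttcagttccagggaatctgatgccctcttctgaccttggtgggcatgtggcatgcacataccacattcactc
Psme2: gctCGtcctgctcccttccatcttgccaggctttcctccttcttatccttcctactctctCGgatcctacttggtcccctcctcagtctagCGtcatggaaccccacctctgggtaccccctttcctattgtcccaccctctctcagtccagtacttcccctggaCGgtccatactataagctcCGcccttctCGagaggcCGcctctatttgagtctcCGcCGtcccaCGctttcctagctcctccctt
Psma7: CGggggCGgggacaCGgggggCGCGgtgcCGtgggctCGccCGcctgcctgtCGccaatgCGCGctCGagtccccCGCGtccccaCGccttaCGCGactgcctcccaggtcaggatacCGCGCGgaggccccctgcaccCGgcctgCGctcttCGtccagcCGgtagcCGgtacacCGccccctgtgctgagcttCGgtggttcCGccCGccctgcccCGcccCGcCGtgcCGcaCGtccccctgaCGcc

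The alpha ring genes, whose products form the outer rings and the gate of the barrel, had a median log2 fold change of 0.36 (0.13 without KO 1 to 0.52 without control 2), with 8 of 8 above 0, 0 called and 5 with both KO libraries above both controls. Psma8 is among the 8 and the 5, but it passed the filter through its KO counts alone, which fixed its direction. Of all genes with at least 10 CPM, 55.9% had estimates above 0 and 27.3% had both KO libraries above both controls. Psma5 (chromosome 3, 108256926 to 108279952, RefSeq span on GRCm38) stood apart, at 17.7 and 18.9 CPM in control libraries 1 and 2 and at 37.8 and 35.6 CPM in KO libraries 1 and 2. The genotypes did not overlap and the replicates lay close together, with a 2.00-fold difference and a log2 fold change of 1.00 ± 0.29 (edgeR adjusted p = 0.184; 95% interval 0.35 to 1.65). Leaving out any 1 library gave values from 0.97 to 1.06. The 6 other alpha genes detected in every library had log2 fold changes from 0.089 (Psma6) to 0.47 (Psma4). Psma4 had 77.3 and 80.5 CPM in control and 135 and 83.1 CPM in KO, with KO 2 close to the controls. Psma1 had 37.7 and 52.7 CPM in control and 63.4 and 56.8 CPM in KO and Psma3 had 40.2 and 53.9 CPM in control and 61.9 and 54.5 CPM in KO, and in both control 1 was the low library. Psma2 had 0.24 and Psma7 0.19, each with overlapping groups.

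Psma8, the alpha subunit of the germ-line proteasome and a paralogue of Psma7, had 0 counts in both controls, 57 counts in KO 1 and 11 in KO 2, or 1.64 and 0.309 CPM. Pooled over each genotype, its level was at least 14.98-fold higher in KO, taking a floor of 3 counts over the control group (0.0644 CPM). The bound rests on KO 1: against the same floor it was 25.4-fold from KO 1 alone and 4.80-fold from KO 2 alone. Its edgeR adjusted p was 0.278. The transcript remained a trace beside its paralogue, at 0.0207 and 0.00558 of the CPM of Psma7 in the KO libraries.

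The beta ring genes had a median log2 fold change of 0.20 (-0.0089 without control 2 to 0.43 without control 1), with 0 called. Estimates lay above 0 in 7 of 9 (77.8%, against 55.9% of genes with at least 10 CPM). For the catalytic subunits of the standard particle every 95% interval included 0. Psmb6, with caspase-like activity, had 47.8 and 33.7 CPM in control and 49.7 and 44.8 CPM in KO (log2 fold change 0.22 ± 0.28, edgeR adjusted p = 0.812). Psmb7, with trypsin-like activity, had 52.6 and 44.2 CPM in control and 59.7 and 51.8 CPM in KO (0.20 ± 0.25, 95% interval -0.36 to 0.77). Psmb5, with chymotrypsin-like activity, had 19.1 and 6.40 CPM in control and 17.3 and 11.7 CPM in KO (0.20 ± 0.52), and the spread between its controls was wider than the difference between genotypes. The 95% interval of Psmb5 ran from -0.98 to 1.38. Of the structural subunits, Psmb1 had 57.7 and 62.0 CPM in control and 73.4 and 83.1 CPM in KO (0.39 ± 0.23) and Psmb2 had 25.5 and 16.3 CPM in control and 26.4 and 29.7 CPM in KO (0.43 ± 0.33), both without overlap. Psmb3 and Psmb4 had -0.054 and 0.078 and overlapped.

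Psmb10 (chromosome 8, 105935728 to 105938392), the interferon-inducible subunit that takes the place of Psmb7, was at 16.1 and 17.4 CPM in control libraries 1 and 2 and at 36.3 and 30.01 CPM in KO libraries 1 and 2. Both KO libraries lay well above both controls, a 1.98-fold difference (log2 fold change 0.99 ± 0.30, edgeR adjusted p = 0.209; 95% interval 0.30 to 1.67), with a range of 0.89 to 1.14 when any 1 library was left out. The CPM of Psmb10 over that of Psmb7 was 0.305 and 0.393 in the controls and 0.609 and 0.580 in the KO libraries, a ratio within each library that does not depend on library scaling. Its counterparts Psmb8 and Psmb9, outside the set, had 159 and 142 CPM in control and 216 and 209.6 CPM in KO (0.50 ± 0.22) and 15.6 and 13.2 CPM in control and 25.1 and 21.9 CPM in KO (0.71 ± 0.33), with edgeR adjusted p-values of 0.350 and 0.380. The CPM of Psmb9 over that of Psmb6 was above the control values in both KO libraries, with 0.325 and 0.393 in the controls and 0.506 and 0.488 in KO, whereas that of Psmb8 over Psmb5 overlapped, at 8.34 and 22.1 against 12.5 and 18.0.

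Psmb11 (chromosome 14, 54625310 to 54629556), the subunit of cortical thymic epithelium whose gene lies close to Psmb5, was near 0 throughout, with 14 and 48 counts in the controls and 2 and 0 in the KO libraries. In CPM these were 1.18 and 1.38 against 0.0574 and 0. The pooled level in KO was 0.0213 of that in control (exact 95% interval 0.00253 to 0.0803, counting error only), and the edgeR adjusted p was 0.306. Other epithelial markers lay on both sides of their control levels. Foxn1, the defining factor of this epithelium, had 1.60 and 1.15 CPM in control and 0.172 and 0.0562 CPM in KO, Prss16 had 0 and 0.808 CPM in control and 0 and 0.506 CPM in KO and Krt8 had 0.336 and 0.346 CPM in control and 0.0574 and 0 CPM in KO, whereas Epcam had 1.09 and 4.88 CPM in control and 11.6 and 15.1 CPM in KO and Ly75 23.2 and 49.8 CPM in control and 96.2 and 101.03 CPM in KO. Over the whole list, 9 of 10 genes were tested and 0 passed with edgeR and 2 with DESeq2 (Ly75 and Epcam). Without overlap, 3 lay above the controls (Ly75, Epcam and Ccl25) and 3 below them (Foxn1, Krt8 and Tbata), beside 22.8% and 24.0% of all genes tested. The sum was 47.4 and 73.1 CPM in control and 129 and 138 CPM in KO, and Ly75 was its largest part in every library. The part of epithelial RNA in the Psmb11 values was not tested.

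The 6 ATPase genes, whose products form the unfolding ring at the base of the regulatory particle, had a median log2 fold change of 0.19 (-0.034 without control 2 to 0.34 without control 1), with 0 called. Estimates lay above 0 in 5 (83.3%, against 55.9% of genes with at least 10 CPM). Both KO libraries lay above both controls in 2 (33.3%, against 27.3% of those genes, so near that share). Psmc6 had 59.5 and 57.4 CPM in control and 87.4 and 69.2 CPM in KO, with both KO libraries above both controls (0.42 ± 0.24, edgeR adjusted p = 0.477). Psmc2 had 43.2 and 42.2 CPM in control and 54.8 and 48.2 CPM in KO (0.27 ± 0.25), a smaller difference in the same direction. Psmc5 was the ATPase gene with the lowest estimate, at 44.3 and 52.5 CPM in control and 47.2 and 33.1 CPM in KO (-0.27 ± 0.28). Psmc1, Psmc3 and Psmc4 had 0.19, 0.024 and 0.19, with overlapping groups in each. In Psmc1 the levels were 100.5 and 82.3 CPM in control and 110.2 and 98.8 CPM in KO.

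The 14 Psmd genes, for the base scaffold, the lid and their assembly factors, had a median of 0.19 (0.11 without KO 1 to 0.47 without KO 2), with 0 called. Estimates lay above 0 in 10 (71.4%, against 55.9% of genes with at least 10 CPM) and below in 4. Without overlap, 5 lay above the controls (35.7%, against 27.3% of those genes, so near that share) and 1 below them (against 20.2%). Psmd6, a lid subunit gene, had 65.4 and 56.5 CPM in control and 88.0 and 82.7 CPM in KO (0.49 ± 0.23, edgeR adjusted p = 0.386). Psmd8, another lid subunit gene, was the one member of the regulatory families with both KO libraries below both controls, at 87.3 and 81.6 CPM in control and 69.9 and 59.0 CPM in KO (-0.39 ± 0.23, edgeR adjusted p = 0.501). Lid subunits thus had point estimates on either side of 0, and Psmd11, Psmd12, Psmd13 and Psmd14, the last the deubiquitinase that removes ubiquitin from substrates, had 0.16, 0.22, 0.34 and 0.16. Psmd14 had 50.9 and 43.7 CPM in control and 54.8 and 50.8 CPM in KO, and Psmd11 had 86.2 and 77.4 CPM in control and 91.7 and 90.4 CPM in KO. Psmd7, the partner of Psmd14, had 94.999 and 99.8 CPM in control and 146 and 71.0 CPM in KO: KO 1 was the highest and KO 2 the lowest of the 4 libraries. Psmd3, also of the lid, had -0.14.

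Among base genes, the scaffolds Psmd1 and Psmd2 had 0.33 and 0.31, with KO 1 the highest library in both (Psmd1, 206 CPM; Psmd2, 140.3 CPM). Psmd4, a ubiquitin receptor, had 163 and 124 CPM in control and 138 and 111 CPM in KO (-0.20 ± 0.24, 95% interval -0.75 to 0.34). Of the assembly factors that leave before the particle is finished, Psmd10 had 8.74 and 5.80 CPM in control and 12.5 and 11.997 CPM in KO (0.76 ± 0.43), Psmd9 25.1 and 21.4 CPM in control and 34.4 and 25.7 CPM in KO (0.37 ± 0.31) and Psmd5 52.5 and 53.5 CPM in control and 58.7 and 41.5 CPM in KO (-0.083 ± 0.27). Psmd10 and Psmd9 did not overlap between genotypes and Psmd5 did. In RefSeq the spans of Psma3, Psma4, Psmb5, Psmd1, Psmd10, Psme1, Psme2b, Psme4 and Psmf1 each overlap another gene (Atg4a for Psmd10, Emc9 for Psme1). No source used here says whether counting used strand, so shared reads cannot be told apart.

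The activator genes had a median of 0.71 (0.44 without KO 1 to 0.91 without KO 2), with 0 called by edgeR. Estimates lay above 0 in 5 of 5 and without overlap above the controls in 3, against 55.9% and 27.3% of genes with at least 10 CPM. Psme2 (chromosome 14, 55587440 to 55591101), the beta chain of the interferon-inducible activator, was at 11.9 and 13.5 CPM in control libraries 1 and 2 and at 32.1 and 35.9 CPM in KO libraries 1 and 2. Both KO libraries were far above both controls, a 2.67-fold difference and a log2 fold change of 1.42 ± 0.31, the largest point estimate among members detected in every library. Its edgeR adjusted p was 0.0962 (95% interval 0.72 to 2.12), and its DESeq2 adjusted p was 0.00642. Psme1 (chromosome 14, 55578494 to 55581527), which encodes the alpha chain of the same ring and lies close to Psme2, was at 161 and 159.7 CPM in control libraries 1 and 2 and at 315 and 210.0 CPM in KO libraries 1 and 2. The controls were nearly equal, KO 2 lay above them and KO 1 was the highest (1.64-fold, 0.71 ± 0.25, edgeR adjusted p = 0.260). The value of Psme1 was 0.44 without KO 1, whereas that of Psme2 ran from 1.35 to 1.55 whichever library was left out. The CPM of Psme2 over that of Psme1 was 0.0743 and 0.0845 in the controls and 0.102 and 0.171 in the KO libraries.

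Psme2b, a second gene for the beta chain on chromosome 11 (48945345 to 48946410), had 4.37 and 7.13 CPM in control and 10.7 and 12.4 CPM in KO (1.00 ± 0.46, edgeR adjusted p = 0.377). It is a near copy of Psme2, and no source used here says how reads matching both were counted. The split between the 2 genes is therefore uncertain, as are the level of each and the ratios of Psme2 to other genes. The other activators had smaller estimates. Psme3, the nuclear activator, had 117 and 75.5 CPM in control and 129 and 92.8 CPM in KO (0.21 ± 0.28), and Psme4, the large single-chain activator of nuclei and testis, had 162 and 215 CPM in control and 184 and 199 CPM in KO (0.023 ± 0.23). Both overlapped between genotypes. The CPM of Psme2 over that of Psme3 was 0.102 and 0.179 in the controls and 0.248 and 0.387 in the KO libraries, without overlap.

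Psmf1, an inhibitor of the core particle, had 23.0 and 18.7 CPM in control and 17.0 and 23.7 CPM in KO (-0.033 ± 0.34, edgeR adjusted p = 0.980). The Psmg genes encode chaperones that assemble the alpha ring, and all 4 had estimates above 0 (against 55.9% of genes with at least 10 CPM). Their median was 0.67 (0.29 without KO 1 to 0.93 without KO 2), with 0 called. Psmg2, the partner of Psmg1, had 12.9 and 9.40 CPM in control and 22.6 and 19.4 CPM in KO, without overlap (1.89-fold, 0.92 ± 0.36, edgeR adjusted p = 0.302). Psmg1 had 17.1 and 18.8 CPM in control and 28.0 and 14.9 CPM in KO (0.25 ± 0.38), with KO 2 the lowest library, so the pair did not share a pattern over the libraries. Psmg3 and its partner Psmg4 had 3.363 and 7.44 CPM in control and 12.5 and 7.98 CPM in KO (0.91 ± 0.53; 0.48 without control 1 to 1.62 without control 2) and 23.4 and 26.2 CPM in control and 43.2 and 23.7 CPM in KO (0.43 ± 0.35).

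Core and regulatory genes were then compared, since the assembled particle needs both. The core genes had a median log2 fold change of 0.24 and the regulatory genes of 0.21. Estimates lay above 0 in 15 of 17 and 20 of 25, against 55.9% of genes with at least 10 CPM. Summed core transcripts were 642 and 602 CPM in control and 859 and 690.0 CPM in KO, and summed regulatory transcripts were 2004 and 1792 CPM in control and 2440.0 and 1913 CPM in KO. The core over regulatory ratio of these sums was 0.320 and 0.336 in the controls and 0.352 and 0.361 in the KO libraries. Both KO ratios lay above both control ratios, by a mean of 0.12 on the log2 scale, beside an SD of 0.050 between the controls and 0.025 between the KO libraries. With 2 libraries per genotype a two-sided exact permutation test cannot go below 0.333, and none was made. The order did not hold under another summary: with the difference of class medians of log2(CPM + 0.1) in each library, the KO libraries (-0.75 and -0.71) lay between the controls (-0.90 and -0.39).

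**Figure D3:**
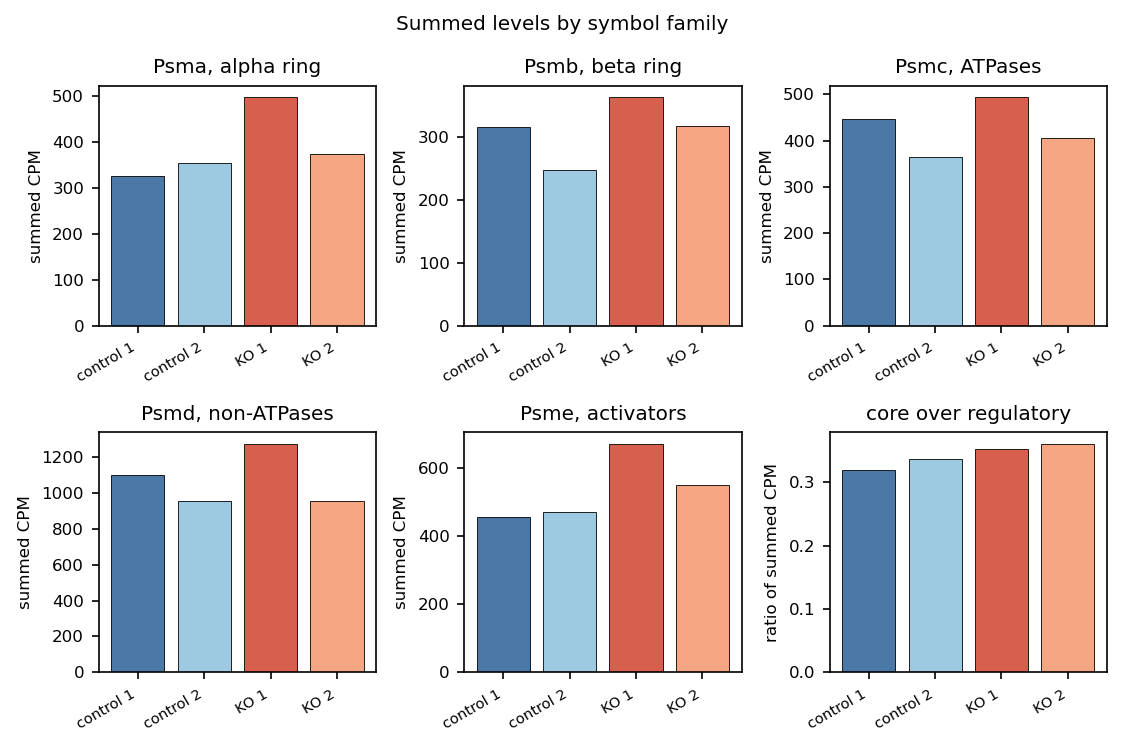
Summed CPM of each symbol family in each library, and in the last panel the ratio of summed core to summed regulatory CPM, with 1 bar per library. The Psma, Psmb and Psme sums are higher in both KO libraries than in both controls, for Psmb by a small margin (317 in KO 2 against 316 in control 1), the Psmc and Psmd sums overlap between genotypes, and the ratio runs from 0.320 in control 1 to 0.361 in KO 2.

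Levels of different subunit genes were compared as CPM per kilobase of coding length (mean ± SD, n = 2), with lengths of the principal GENCODE M21 transcript for all 47 members. In controls the interquartile range of the members was 27.8 to 68.2, around a median of 46.6. Psme1 was the most abundant, at 214 ± 0.895 in controls and 352 ± 99.8 in KO. Psmd4 (127 ± 24.5), Psme3 (126 ± 38.8), Psmd7 (101.2 ± 3.56) and Psma4 (100.8 ± 2.84) followed in controls, and the gaps between successive genes among these 4 were smaller than the larger of the 2 SDs. Psme2, the partner of Psme1 in one ring, was far lower as counted, at 17.7 ± 1.54 in controls and 47.4 ± 3.68 in KO. How reads matching both Psme2 and Psme2b were counted is not known, so the size of this gap is uncertain. Psma5 (25.3 ± 1.13) and Psmb10 (20.4 ± 1.16) were also below the lower bound of that range in controls, and in KO they reached 50.7 ± 2.15 and 40.5 ± 5.46. The lowest members present in every library were Psme2b (8.02 ± 2.72) and Psmd10 (10.5 ± 3.004). Per kilobase of whole transcript Psme1 and Psmd4 again stood first and second in controls (144 and 108), but Psme3 moved from rank 3 to rank 20. The lowest members present in every library were then Psmd10 (5.08), Psmf1 (5.47) and Psmg3 (6.12). Psme2 (13.2) and Psmb10 (12.8) stayed below the lower quartile of 13.8, and Psma5 (14.8) lay above it. Per coding length, core genes had a median of 57.1 and regulatory genes of 46.6 in controls, a ratio of 1.23. Taken within each library this ratio was 0.941 in control 1 and 1.24 in control 2, and over the control means it was 1.01 per kilobase of whole transcript, so no order of core and regulatory levels held.

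**Figure D4:**
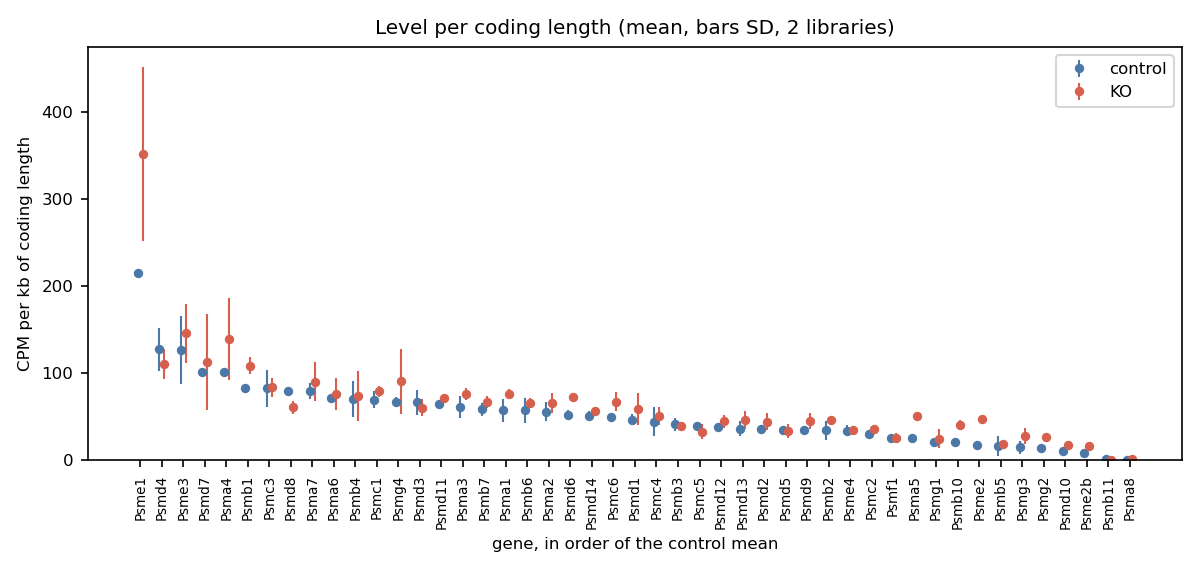
CPM per kilobase of coding length for each gene in control (blue) and KO (red), as mean with SD over 2 libraries, ordered by the control mean. Psme1 stands above the rest in both genotypes, and Psma5, Psmb10 and Psme2, to the right, have KO values above their control values.

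In CG content the 3 genes of smallest p were unlike. The whole windows of the promoters printed held 3 CG in Psmb10, 11 in this promoter of Psme2 and 26 in Psma5, while Psma7, with 41, had a log2 fold change of 0.19. Across the 39 members with a promoter, Psmb11 included, Spearman's rho between CG count (the richest promoter of each gene) and log2 fold change was -0.15. The 10 members with 12 or fewer CG had a median log2 fold change of 0.56 (range -5.29, Psmb11, to 1.42). The 29 with more had 0.22 (range -0.39 to 1.00). These values are given as a description, since all points come from the same 4 libraries.

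**Figure D5:**
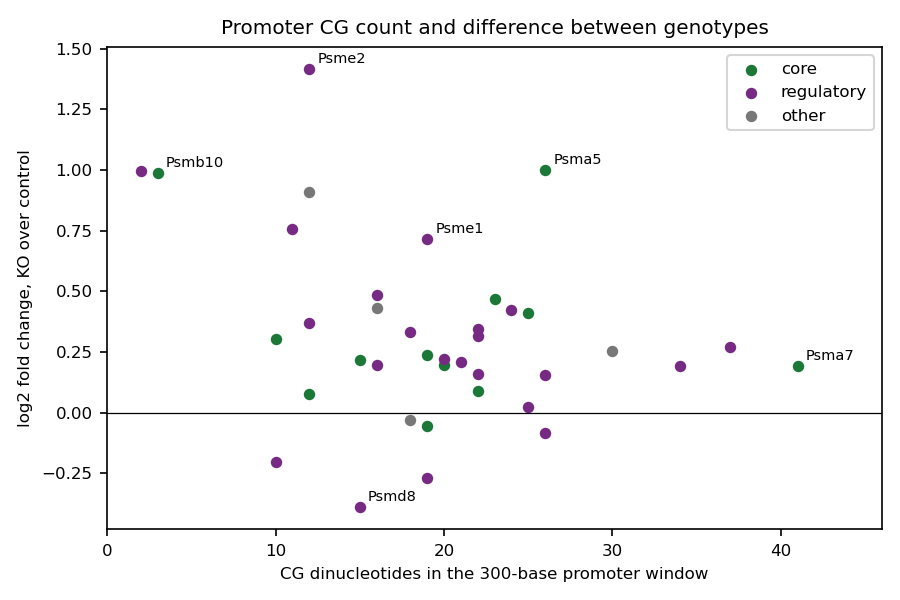
CG dinucleotides in the 300-base promoter window of each gene against its log2 fold change of KO over control, 1 point per gene, coloured by core, regulatory or other, without Psmb11. Psma5 and Psmb10 lie at a like height at 26 and 3 CG.

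Motifs were counted on either strand in the same windows. The core of the antioxidant response element, TGACNNNGC, to which the proteasome regulator Nfe2l1 is known to bind, was in 14.3% of member promoters (6 of 42) and 13.0% of protein-coding promoters (12.4% of all). Those with the motif before the start were Psmb5, Psmb6, Psmc6, Psmd9 and Psmd12. The ETS family core CCGGAAG, which itself holds a CG, was in 35.7% of member promoters (15 of 42) and 11.6% of protein-coding promoters (8.86% of all), among them Psmc1, Psmc2, Psmc6, Psme3 and Psme4. CCAAT was in 31.0% of member promoters (13 of 42) and 38.2% of protein-coding promoters (37.4% of all) and TGCGCA in 14.3% of member promoters (6 of 42) and 9.74% of protein-coding promoters (7.76% of all). After the values of Psme2 and Psmb10 were seen, motifs of interferon-regulated factors were added: AANNGAAA was in 31.0% of member promoters (13 of 42) and 21.8% of protein-coding promoters (23.9% of all) and TTCNNNGAA in 4.76% of member promoters (2 of 42) and 7.69% of protein-coding promoters (8.30% of all). None of the 6 motifs lay in the 250 bases before the annotated starts of Psma5, Psmb10, Psme1, Psme2 or Psme2b. Overlaps between motifs were not removed, and a match describes the letters of the window only.

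Other genes of the pathway, from lists fixed with earlier results of these data known, gave 0 calls among 42 tested by edgeR (3 higher and 0 lower at an unadjusted p below 0.05) and 0 by DESeq2, with 29 estimates above 0 and 13 below. Over all genes tested, 6.97% were higher and 6.91% lower at that unadjusted p, and 47.6% had estimates above 0 (55.9% of those with at least 10 CPM). The transcriptional regulators of proteasome genes had a median of -0.17 over 9 genes, 3 above and 6 below 0. Nfe2l1, the factor that raises proteasome gene expression when the particle is inhibited, had 75.5 and 62.3 CPM in control and 52.5 and 56.4 CPM in KO (-0.34 ± 0.24), without overlap, and its small Maf partner gene Maff had 11.3 and 4.39 CPM in control and 2.87 and 5.09 CPM in KO (-0.97 ± 0.63), with overlap. The Maff value rests on single libraries (-1.50 without control 2 to -0.13 without control 1). Ubiquitin receptors and deubiquitinases had a median of 0.14 over 10 genes. The shuttle receptors Rad23b and Ubqln4 had 129 and 113 CPM in control and 197 and 147 CPM in KO (0.51 ± 0.24) and 44.3 and 33.4 CPM in control and 60.1 and 35.5 CPM in KO (0.30 ± 0.32). Assembly and import factors had a median of 0.30 over 6, led by AI314180 (current symbol Ecpas, an adaptor that holds core and cap together), with 167 and 187 CPM in control and 319 and 226 CPM in KO (0.62 ± 0.24, edgeR adjusted p = 0.308), and Shfm1 (current symbol Sem1, a small lid subunit) with 71.6 and 56.7 CPM in control and 86.2 and 85.7 CPM in KO (0.42 ± 0.23). The segregase list had a median of 0.082 over 9, and Vcp, the ATPase that extracts ubiquitinated proteins, had 210.2 and 206 CPM in control and 269 and 244 CPM in KO (0.30 ± 0.21). Its adaptor Ufd1l (current symbol Ufd1) had 37.2 and 44.5 CPM in control and 47.7 and 56.7 CPM in KO (0.35 ± 0.26).

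Genes for ubiquitin and its activation had a median of 0.34 over 6, all 6 above 0 (against 55.9% of genes with at least 10 CPM) and 0 called. Uba6, a ubiquitin-activating enzyme, had 33.5 and 68.9 CPM in control and 68.6 and 86.3 CPM in KO (0.59 ± 0.34, edgeR adjusted p = 0.489; 0.18 without control 1 to 1.22 without control 2). The ubiquitin gene Ubb, at 817 and 734 CPM in control and 782 and 875 CPM in KO, overlapped between genotypes. Because Psme1, Psme2 and Psmb10 are known interferon targets, 16 other such genes were listed after their values were seen, of which 15 were tested and 0 called by edgeR, with 12 above 0 and 3 below, a median of 0.31, and 3 higher and 0 lower at an unadjusted p below 0.05. The shares over all genes tested were 47.6% above 0 (55.9% of those with at least 10 CPM) and, at that p, 6.97% higher and 6.91% lower. The class I light chain gene B2m had 122 and 163 CPM in control and 336 and 355 CPM in KO (1.27 ± 0.24, edgeR adjusted p = 0.0664) and was called by DESeq2 (adjusted p = 8.63e-05). The class I activator gene Nlrc5 had 31.7 and 27.9 CPM in control and 39.9 and 57.4 CPM in KO (0.71 ± 0.29), the interferon factor gene Irf1 had 39.9 and 33.9 CPM in control and 63.6 and 47.5 CPM in KO (0.59 ± 0.27), and Ifit1, a gene strongly induced by type I interferon, had 18.9 and 10.3 CPM in control and 6.46 and 14.7 CPM in KO (-0.46 ± 0.50). The part of interferon signalling in the values of Psme1, Psme2 and Psmb10 was not tested.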

How the data were processed

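Counts per gene symbol were deposited for 4 libraries of DP thymocytes, 2 control and 2 KO, grouped by sample title. Values are whole-number counts, not normalised, per the deposited files. Per the labels' protocols, RNA was isolated in TRIzol and a SMART-seq kit was used on 10 ng per library, and per the file headers reads were aligned with HISAT2. PCR reads without molecular identifiers are not independent molecules, and none are named. The submitters' processing notes list, with no role or order, edgeR 3.36.0, featureCounts 2.0.8, HISAT2 2.2.1, cutadapt 4.0 and the build mm10. No source used here gives the annotation, the strand setting or the handling of multi-matching reads.

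Counts were analysed with R 4.3.3 and edgeR 4.0.16: filterByExpr defaults (minimum count 10, total 15; 20389 genes kept), TMM, quasi-likelihood test with genotype as the term, Benjamini-Hochberg adjustment over all genes, calls below 0.05. The biological coefficient of variation was 57.4%. Standard errors are the log2 fold change over the square root of F, and intervals use the moderated degrees of freedom. CPM uses TMM-scaled totals. A floor of 3 counts was 0.0843 to 0.252 CPM and, like all counting intervals, covers counting error only. Counts of every 2 libraries differed beyond sampling noise (chi-square over degrees of freedom at least 56.9). The computation was checked on counts simulated with the dispersions of this fit. That check does not show how well the p-values hold with 2 libraries per genotype. Alternatives were DESeq2 1.42.0, other scalings and filters, a replicate block and leaving out each library.

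The members and lists were chosen with earlier results of these data known. Library values were to be given for called members, otherwise for the 2 of smallest p in each family, the extremes per kilobase and preset members, and for the 2 of smallest p in each pathway list. Other genes, among them Psma1, Psma4, Psmb1, Psmd7, Psmd8, Psme2b, Ubb and B2m, were chosen after their values were seen, as were the interferon list and motifs and the whole-transcript lengths. Coding lengths are from GENCODE M21 in place of the protein table that had been planned. A gene that the naming rule takes is not reported here. Double-negative thymocytes were not analysed here.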

Additional observations from a re-analysis of the deposited data

How the results depend on the processing

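With no call in the main comparison, DESeq2 and no filter on low counts each gave 1 called member, Psme2. DESeq2 called 4.74% of the genes it gave an adjusted p, and the fit without a filter called 3.01% of all genes. The replicate block gave 4 called members (Psma5, Psmb10, Psme1 and Psme2), while that block called 7.84% of all genes. The 4 other settings that kept all libraries gave 0. For pathway genes the block gave 4 calls. The labels do not say whether same-numbered libraries belong together. Their deviations correlated at -0.0096 over tested genes and 0.34 over those with at least 10 CPM, so a pairing cannot be settled here. Leaving out 1 library gave 0 to 1 called members and 0 to 1 pathway calls. Class medians then ran over 0.14 to 0.44 (all members), 0.14 to 0.42 (core), 0.13 to 0.40 (regulatory), 0.13 to 0.52 (Psma), -0.0089 to 0.43 (Psmb), -0.034 to 0.34 (Psmc), 0.11 to 0.47 (Psmd), 0.44 to 0.91 (Psme), -0.27 to 0.24 (Psmf), 0.29 to 0.93 (Psmg). Single genes whose estimate turned sign without 1 library ran over -0.13 to 0.34 (Psma6), -0.035 to 0.44 (Psma7), -0.23 to 0.16 (Psmb3), -0.34 to 0.45 (Psmb4), -0.39 to 1.19 (Psmb5), -0.0089 to 0.50 (Psmb6), -0.21 to 0.32 (Psmc3), -0.14 to 0.64 (Psmc4), -0.34 to 0.12 (Psmd3), -0.38 to 0.022 (Psmd4), -0.30 to 0.16 (Psmd5), -0.40 to 0.60 (Psmd7), -0.069 to 0.57 (Psme3), -0.15 to 0.25 (Psme4), -0.27 to 0.24 (Psmf1), -0.22 to 0.66 (Psmg1), -0.013 to 0.82 (Psmg4), -0.077 to 0.65 (Ubqln4). Turned signs also came from DESeq2 (Psmc3 -0.00096, Psme4 -0.00055), library totals (Psmf1 0.013), upper-quartile scaling (Psma6 -0.012, Psmb4 -0.030, Psmc3 -0.077, Psme4 -0.067) and a minimum of 5 CPM (Psmb4 -0.0053, Psmc3 -0.054, Psme4 -0.048). The core over regulatory difference was -0.090 with medians and 0.19 without Psmd5, Psmd9, Psmd10 and Psme, and the ratio of levels was 1.01 per whole transcript. No member or pathway gene was called in the main comparison, so none of the genes whose sign turned could have been. The cause was not tested. Of 646 values of 59 genes under alternatives, 601 kept direction and side of the threshold. Control 1, with 12150508 counts, limits the precision of low members such as Psmb11 and Psmd10.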
